A study of Mus musculus with 2 samples.

Results

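The genes described here are 34 genes of the interferon response, taken by name: 4 receptor chains, 5 sensors and sensor partners, 6 signalling factors and 19 effectors. Of these, 33 had probesets among the deposited values that the annotation names with that gene alone, 384 probesets in all. The whole table held 21947 named genes with 270105 probesets. Tmem173 is now called Sting1, and the probesets of Mavs carry an older clone name. Isg15 had no such probeset and has no value here.

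The study grew embryoid bodies from the mouse embryonic stem cell line Bry-GFP, a reporter of Brachyury, and isolated FLK1+ mesoderm on day 3. The first group then received compound B, an LSD1 inhibitor, at 300 nM, and the second received DMSO, the solvent, as its control. CD41+ cells, labelled as hemogenic endothelium, were sorted from both cultures on culture day 2, and their total RNA was measured on 1 Affymetrix array per group. LSD1 is a histone demethylase. Both groups came from the same line, and the labels give no genotype difference between them. With 1 array per group there is no replicate, so every difference describes these 2 arrays and has no p-value.

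Interferons are secreted proteins that bind paired receptor chains, IFNAR1 with IFNAR2 for type I interferons and IFNGR1 with IFNGR2 for interferon gamma. The receptors activate JAK kinases, which phosphorylate STAT proteins, and STAT2 with IRF9 is part of the complex that binds the interferon-stimulated response element, ISRE, in front of effector genes. Cytosolic sensors of foreign RNA and DNA act upstream of this loop, through IRF3 and IRF7, to start interferon production. Effector genes block steps of viral growth, and many of them are low until interferon is present.

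The ISRE is the sequence that interferon-activated factors bind, and it was searched for in the RefSeq promoters of the members (build GRCm38.p6, from 250 bases before to 50 bases after each start site) as the letters GAAANNGAAA on both strands. Of 29 members with a promoter in the table, 13 held at least 1 match (44.8%), against 1079 of 27025 genes with a promoter (3.99%) and 3.44% of all windows. The matches lay in 9 of 15 effectors, 2 of 4 sensors, 2 of 6 signalling factors and 0 of 4 receptor chains. The gamma-activated sequence, searched for as TTCNNNGAA, was found in 10 of the 29 members and in 9.55% of all genes, and its matches may overlap those of the ISRE. A match is a description of letters and not of a bound site. The 4 promoters printed next are those of the 2 members that differed by at least 2-fold between the arrays, Bst2 and Irf7, and of 2 effectors with a match that did not, Gbp3 and Rsad2. Capitals mark the ISRE letters, and a run longer than the motif holds 2 overlapping matches.
Bst2 promoter, chr8:71537423-71537722, minus strand: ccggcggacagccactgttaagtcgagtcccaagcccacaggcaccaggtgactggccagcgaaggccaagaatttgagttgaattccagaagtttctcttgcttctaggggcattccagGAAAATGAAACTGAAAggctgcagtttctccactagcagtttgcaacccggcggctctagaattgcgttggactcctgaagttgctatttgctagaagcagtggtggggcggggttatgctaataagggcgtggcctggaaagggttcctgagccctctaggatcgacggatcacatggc
Irf7 promoter, chr7:141266375-141266674, minus strand: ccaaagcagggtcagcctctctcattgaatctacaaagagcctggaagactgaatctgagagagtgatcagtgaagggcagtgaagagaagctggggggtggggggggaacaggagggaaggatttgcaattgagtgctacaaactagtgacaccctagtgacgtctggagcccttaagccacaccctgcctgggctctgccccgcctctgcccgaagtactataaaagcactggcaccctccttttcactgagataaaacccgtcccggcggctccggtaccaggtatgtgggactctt
Gbp3 promoter, chr3:142559794-142560093, plus strand: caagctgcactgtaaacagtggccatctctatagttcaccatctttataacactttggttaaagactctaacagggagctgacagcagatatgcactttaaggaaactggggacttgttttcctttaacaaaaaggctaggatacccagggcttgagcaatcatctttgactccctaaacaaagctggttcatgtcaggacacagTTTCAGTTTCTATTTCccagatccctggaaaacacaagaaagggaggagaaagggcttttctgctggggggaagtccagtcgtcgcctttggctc
Rsad2 promoter, chr12:26456403-26456702, minus strand: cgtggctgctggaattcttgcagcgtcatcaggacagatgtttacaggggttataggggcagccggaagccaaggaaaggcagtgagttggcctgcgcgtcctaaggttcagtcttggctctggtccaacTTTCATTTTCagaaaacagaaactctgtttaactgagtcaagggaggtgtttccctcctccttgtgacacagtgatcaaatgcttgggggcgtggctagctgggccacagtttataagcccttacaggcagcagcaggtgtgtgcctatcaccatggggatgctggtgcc

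In Bst2 the matches began at -130 and -124 from the start site, in Gbp3 at -45 and -39 on the opposite strand, and in Rsad2 at -120 on the opposite strand. The Irf7 window held no match to these letters. Bst2 and Gbp3, both with an overlapping pair, differed between the arrays by 2.11 and -0.33 in log2 (inhibitor minus DMSO). The 9 measured members with a match had a median difference of -0.11, and the 16 measured members without one had 0.00033. The other measured members, Tmem173 (0.86) and Usp18 (0.58), had no promoter among those searched and are in neither group.

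Most interferon genes differed little between the inhibitor array and the DMSO array, with Bst2 4.33-fold higher and Irf7 2.23-fold lower. Values are log2 intensities. A probeset was called bright if its higher value reached the median of the table, 3.17. Genes with 4 or more bright probesets count as measured, and 27 of the 34 genes had them. The level is the median of these probesets, the difference is the median of their differences (inhibitor minus DMSO), and the SD is their spread, which is no replicate error. A gene passed the size rule if it differed by at least 2-fold with at least 75% of its bright probesets in that direction. Bst2 passed it as higher, 1 of 27 (3.70%), against 1.72% of all 15087 measured genes. Irf7 passed it as lower, again 1 of 27, against 0.563% of all measured genes. Counts this small cannot be set apart from those shares. Of the 7 bright probesets of Irf7, 4 were bright through the DMSO array alone, which fixes their direction. The Irf7 difference was -0.43 with dim values raised to the table's median and -0.68 with dim probesets kept. The median difference of the members was -0.0026 and that of all measured genes 0.06. Of the members 13 were above 0 (48.1%) and 14 below, against 59.0% of all measured genes above 0. Of the 27 members 22 lay within the central 90% of all genes, from -0.50 to 0.68. With the arrays centred, quantile-normalized or freed of a level trend, 15 members were above 0 and 12 below. RNA came from sorted cell populations, so fewer cells of a kind and less RNA per cell cannot be told apart.

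**Figure D1:**
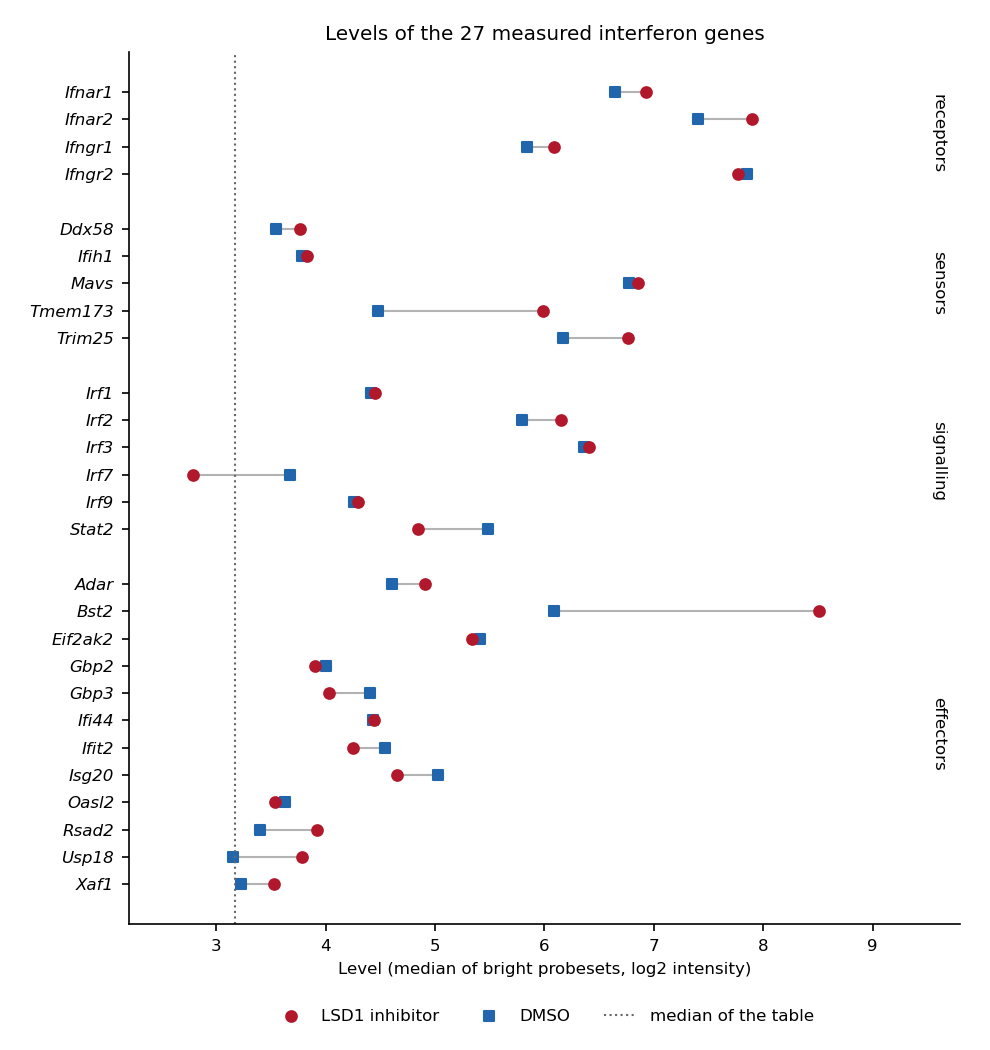
Level of each of the 27 measured members (x axis, log2 intensity) in the LSD1 inhibitor array (red circles) and the DMSO array (blue squares), by role. The 3 widest gaps are those of Bst2, Tmem173 and Irf7, and the inhibitor level of Irf7, 2.79, lies under the dotted line at the table's median.

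The receptor chains were bright in both arrays and none passed the size rule. Of their 48 probesets, 46 were at or above the table's median in the inhibitor array and 46 in the DMSO array. Ifnar1, the chain of the type I receptor that binds TYK2, had a level of 6.93 with the inhibitor and 6.65 with DMSO and differed by 0.15 (SD 0.31), with 16 of 19 probesets higher. Ifnar2, the chain with the higher affinity for type I interferons, had levels of 7.89 with the inhibitor and 7.40 with DMSO and differed by 0.12 (SD 0.71). Its probesets ran from -1.02 to 1.97, with 9 of 11 higher. Ifngr1, which binds interferon gamma, had levels of 6.09 with the inhibitor and 5.84 with DMSO, but the median of its probeset differences was -0.09 (SD 0.62) with 3 of 9 higher. Ifngr2, its signalling partner, had levels of 7.77 with the inhibitor and 7.85 with DMSO and a difference of 0.54 (SD 0.73), with 6 of 7 probesets higher. In 9 measured members, these 2 genes with Ddx58, Mavs, Irf1, Irf3, Irf9, Ifit2 and Rsad2, the gap between the levels and the median difference had opposite signs. The Ifngr2 difference stayed between 0.49 and 0.67 over 13 alternatives. All 10 genes of the list of other receptor chains and kinases were measured and none passed the size rule. Jak2, a kinase of the interferon gamma receptor, had the lowest difference (-0.25, SD 0.54) and the feedback inhibitor Socs3 the highest (0.42, SD 1.08). Jak1, the kinase that both receptors use, differed by 0.26 (SD 0.56).

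Among the sensors, Tmem173 and Trim25 were higher in the inhibitor array without reaching 2-fold, and the RNA helicase genes had differences near 0. Tmem173 encodes STING, the adaptor that answers cyclic dinucleotides made from cytosolic DNA. It had a level of 5.99 with the inhibitor and 4.48 with DMSO, and a difference of 0.86 (SD 0.82, 1.81-fold), with 8 of 9 bright probesets higher and a range from -0.05 to 2.45. It passed the 2-fold rule when dim probesets were kept (1.04), when only probesets above the 75th percentile were used (1.23) and as a mean (1.03). Trim25, the ubiquitin ligase that helps activate RIG-I, had levels of 6.76 with the inhibitor and 6.17 with DMSO and differed by 0.72 (SD 0.43, 1.65-fold), with 12 of 13 probesets higher. At a 1.5-fold threshold, which 5.85% of all measured genes passed as higher, 4 of 27 members passed as higher, namely Bst2, Tmem173, Trim25 and Xaf1. Irf7 was the 1 member past that threshold as lower, against 2.66% of all measured genes.

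Ddx58, which encodes the viral RNA sensor RIG-I, had levels of 3.77 with the inhibitor and 3.55 with DMSO and a difference of -0.0026 (SD 0.80), with 7 of 14 probesets on each side of 0 and a sign that turned under all 3 scalings tried. Ifih1, which encodes MDA5, had levels of 3.83 with the inhibitor and 3.79 with DMSO and differed by 0.13 (SD 0.79). In both helicase genes many probesets were dim, with 14 of 25 bright for Ddx58 and 10 of 24 for Ifih1. Mavs, the mitochondrial adaptor that both helicases signal through, was bright in 12 of 12 probesets, with levels of 6.86 with the inhibitor and 6.77 with DMSO and a difference of -0.14 (SD 0.38).

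The list of other sensors and sensor kinases held 2 higher and 1 lower of 12 measured genes, against 1.72% higher and 0.563% lower of all measured genes. Aim2, an inflammasome sensor of DNA, had a level of 6.50 with the inhibitor and 4.67 with DMSO, a difference of 1.94 (SD 0.68, 3.84-fold), with 11 of 11 probesets higher. Of these 11 probesets, 2 were bright through the inhibitor array alone, which fixes their direction. Cgas, the enzyme that makes the STING ligand from DNA, had levels of 4.93 with the inhibitor and 3.98 with DMSO and differed by 1.06 (SD 0.71), with 5 of 6 probesets higher, 3 of them bright through the inhibitor array alone. The Cgas difference depended on dim values, and was 0.52 with dim values raised to the table's median and 0.75 with dim probesets kept. Dhx58, which encodes LGP2, a RIG-I relative without a signalling domain, differed by -1.02 (SD 0.75, 5 of 6 probesets lower). Its level was 2.91 with the inhibitor and 3.86 with DMSO. Of the 6 probesets, 4 were bright through the DMSO array alone, which fixes their direction, so their count is no support for it. The difference was -0.62 over all 13 probesets, -0.76 as a mean and -0.30 with dim values raised to the table's median, and it fell just short of 2-fold under the 3 scalings (-0.99, -0.98 and -0.97).

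**Figure D2:**
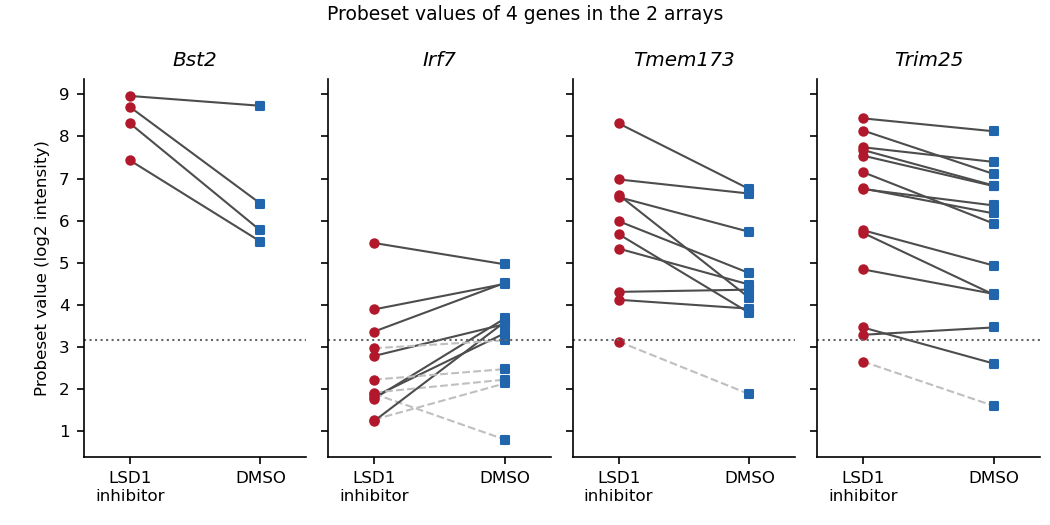
Value of each probeset (y axis, log2 intensity) of Bst2, Irf7, Tmem173 and Trim25 in the LSD1 inhibitor array (left) and the DMSO array (right); solid lines join bright and dashed lines dim probesets. In Bst2 3 of 4 lines run steeply down toward DMSO, and in Irf7 10 of 12 probesets are lower with the inhibitor, where 3 of the 12 reach the dotted table median.

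Of the signalling factors, Irf7 was lower in the inhibitor array and the others did not pass the size rule. IRF7 is the factor that amplifies type I interferon production and is itself induced by interferon. Its 7 bright probesets had a lowest value of 1.24, a median of 2.79 and a highest of 5.47 with the inhibitor, against 3.33, 3.68 and 4.96 with DMSO. The ranges overlapped, and 6 of the 7 probesets were lower with the inhibitor, but 4 of the 7 were bright through the DMSO array alone, which fixes their direction. The difference was -1.16 (SD 0.94), which is 2.23-fold lower. At or above the table's median were 3 of its 12 probesets in the inhibitor array and 7 in the DMSO array. Of the 5 dim probesets 4 were lower as well. The size rests on dim values, since the difference was -0.43 with dim values raised to the table's median and -0.68 with dim probesets kept, neither of them past the rule.

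Stat2, the STAT of the type I pathway, had a level of 4.84 with the inhibitor and 5.48 with DMSO and differed by -0.41 (SD 0.65), with 18 of 23 probesets lower. Irf9, its DNA-binding partner, had levels of 4.29 with the inhibitor and 4.26 with DMSO and a difference of -0.01 (SD 0.48) whose sign turned under the same 3 scalings. Irf3, the factor that the sensors activate first, had levels of 6.41 with the inhibitor and 6.36 with DMSO and differed by -0.04 (SD 0.26), the smallest SD among the 27 measured members. Irf1, an activator induced by interferon gamma, had levels of 4.45 with the inhibitor and 4.42 with DMSO and differed by -0.12 (SD 0.95). Irf2, which competes with IRF1 for its sites, had levels of 6.15 with the inhibitor and 5.80 with DMSO and differed by 0.55 (SD 0.51), with 8 of 10 probesets higher. The median of the 6 signalling factors was -0.08 and turned to 0.02 under the alternative furthest up. None of the 6 measured genes in the list of other IRF factors passed the size rule. The lowest was Irf8, a factor of myeloid cells, at -0.14 (SD 0.35), and the highest Irf2bpl, a relative of the IRF2-binding proteins, at 0.69 (SD 0.77).

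Bst2 was the single effector past the size rule, of 12 measured. Of the 167 effector probesets, 57.5% were at or above the table's median in the inhibitor array and 55.7% in the DMSO array, against 72.3% in the inhibitor array and 71.7% in the DMSO array of all probesets with a gene. Bst2 encodes tetherin, a membrane protein that holds budding virus at the cell surface. Its 4 probesets read 8.96, 8.70, 8.31 and 7.43 with the inhibitor, against 8.73, 6.41, 5.77 and 5.50 with DMSO in the same order. The differences were 0.23, 2.30, 2.55 and 1.93, so 3 probesets were higher by more than 1.5 and the other was nearly level. The gene difference was 2.11 (SD 1.04), which is 4.33-fold, and it lay between 1.75 and 2.14 over the 12 alternatives that measured the gene, past the size rule in each.

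**Figure D3:**
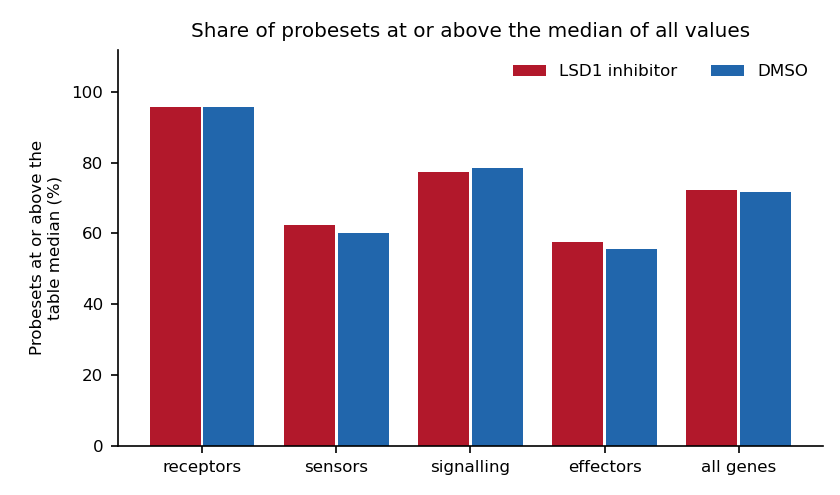
Share of probesets (y axis, percent) that reach the table's median in the LSD1 inhibitor array (red, left) and the DMSO array (blue, right), by role and for all genes. Receptors stand at 95.8% in both arrays and effectors at 57.5% with the inhibitor and 55.7% with DMSO.

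The other 11 measured effectors ran from -0.33 to 0.70, with a median of -0.11. The viral RNA-binding protein gene Ifit2 had levels of 4.25 with the inhibitor and 4.54 with DMSO but a median difference of 0.27 (SD 0.50), the opposite sign. Isg20, an exonuclease of single-stranded RNA, had levels of 4.65 with the inhibitor and 5.02 with DMSO and differed by -0.22 (SD 0.81). Over all 13 probesets Isg20 differed by 0.23, so its sign turned with dim probesets kept. Rsad2, which encodes viperin, had levels of 3.92 with the inhibitor and 3.40 with DMSO but a median difference of -0.29 (SD 1.22), and its 5 probesets ran from -0.53 to 2.31. These 3 genes are classic targets of type I interferon, and none of them was near 2-fold.

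Eif2ak2, which encodes PKR, the kinase that stops translation when it meets viral RNA, was bright in 14 of 14 probesets, with levels of 5.34 with the inhibitor and 5.41 with DMSO and a difference of -0.20 (SD 0.39). Adar, the enzyme that edits adenosine to inosine in paired RNA and so limits its sensing by MDA5, had levels of 4.91 with the inhibitor and 4.61 with DMSO and differed by 0.05 (SD 0.80). Usp18, which removes ISG15 from proteins and blocks signalling at IFNAR2, had levels of 3.79 with the inhibitor and 3.15 with DMSO and differed by 0.58 (SD 0.87), with 6 of 8 probesets higher. Of these 8 probesets, 4 were bright through the inhibitor array alone, and the difference was 0.26 with dim values raised to the table's median and 0.06 with odd-ranked probesets alone. Xaf1, known for its part in cell death, had levels of 3.53 with the inhibitor and 3.23 with DMSO and differed by 0.70 (SD 1.01, 1.63-fold) with 6 of 8 probesets higher, and turned with the probesets used, at 1.22 with the even-ranked and -0.13 with the odd-ranked alone. With dim values raised to the table's median it differed by 0.27. In Usp18 and Xaf1 the SD over probesets was larger than the difference.

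The guanylate-binding protein genes Gbp2 and Gbp3, GTPases induced by interferon gamma, differed by -0.11 (SD 0.61) and -0.33 (SD 0.84). Gbp3 had levels of 4.03 with the inhibitor and 4.40 with DMSO, and Gbp2 had 3.91 with the inhibitor and 4.0 with DMSO. Over all 11 probesets Gbp2 differed by 0.27, so its sign turned with dim probesets kept. Oasl2, of the oligoadenylate synthetase family, was measured on 4 of 12 probesets and differed by -0.30 (SD 0.88), with levels of 3.53 with the inhibitor and 3.63 with DMSO. Ifi44, an interferon-induced gene of less certain role, was measured on 4 of 13 probesets and differed by 0.01 (SD 0.87), with levels of 4.44 with the inhibitor and 4.43 with DMSO. The GBP and OAS families hold close paralogs that may share probes, so values of single members are uncertain.

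Besides Isg15, 6 effectors had too few bright probesets to be measured: Ifit1, Ifit3, Oas1a, Mx1, Mx2 and Rtp4. Over all of its probesets, Mx1, a GTPase against influenza viruses, had a median of 1.83 with the inhibitor and 2.06 with DMSO, and 1 of 5 probesets was bright. Mx2 had medians of 2.26 with the inhibitor and 2.13 with DMSO, with 3 of 11 bright, and Rtp4 had 1.97 with both, with 1 of 4 bright. These values lie under the table's median in both arrays. Ifit1 had medians of 2.93 with the inhibitor and 3.29 with DMSO over 4 probesets. Ifit3 had 3 probesets of its own, with values of 4.59, 3.40 and 0.58 with the inhibitor, against 2.18, 3.70 and 2.18 with DMSO in the same order, which gives no common direction. Oas1a had medians of 3.43 with the inhibitor and 3.64 with DMSO over its 4 probesets. The median of its probeset differences was 0.18, of the opposite sign to the gap between these medians. Oas1a shares 12 further probesets with its paralog Oas1g, of which 7 were higher and 5 lower, with a median of 0.22.

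**Figure D4:**
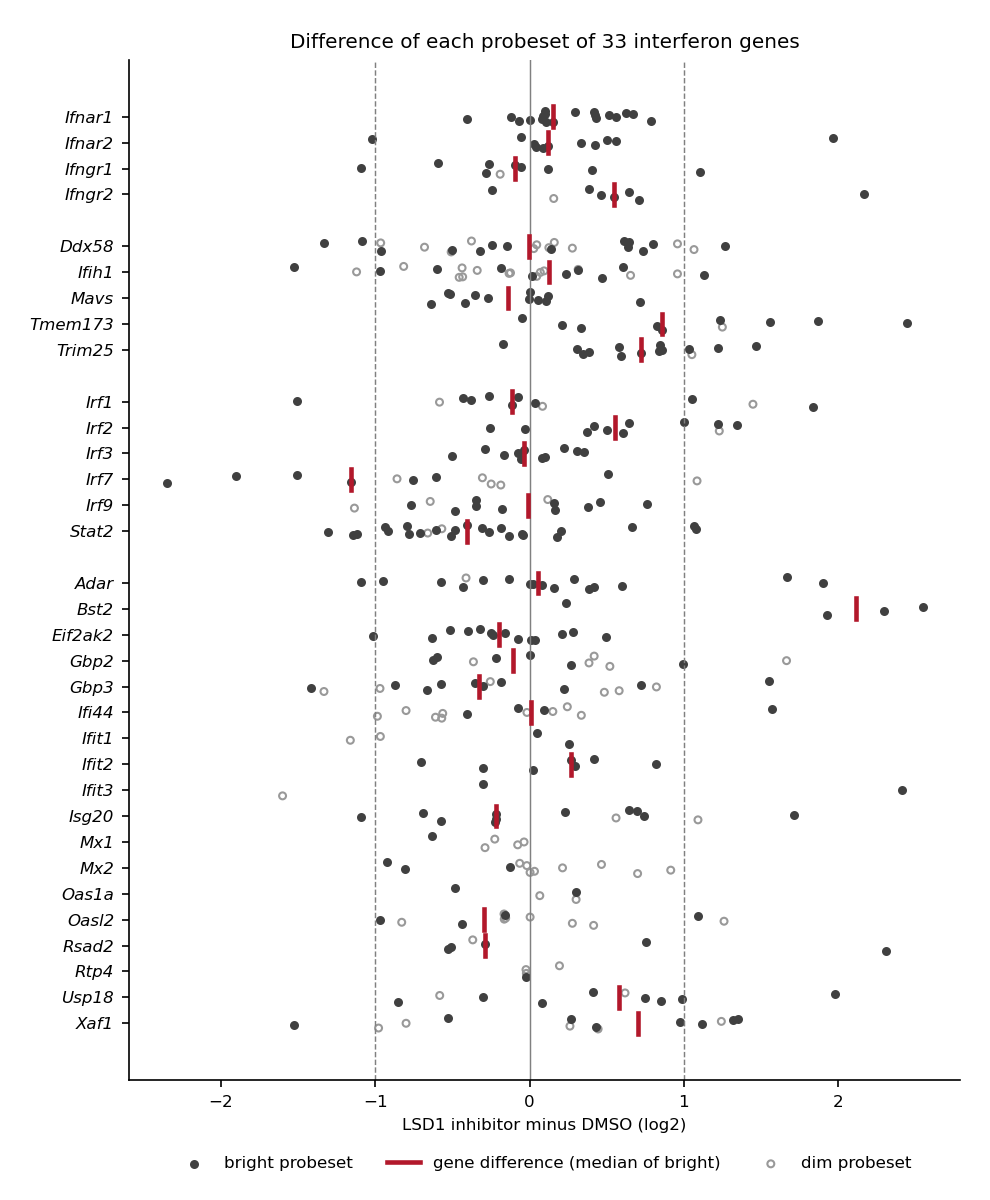
Difference of each probeset (x axis, log2, LSD1 inhibitor minus DMSO) for the 33 members with probesets; filled points are bright and open points dim probesets, and red bars are the gene differences. Dashed lines mark 2-fold, and the red bars of Bst2 (2.11) and Irf7 (-1.16) lie beyond them.

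The SD over a gene's probesets had a median of 0.79 in the measured members, against 0.60 in all measured genes. In 22 of the 27 members the difference was smaller than that SD, which is 81.5%, against 88.8% of all measured genes. The genes Bst2, Tmem173, Trim25, Irf2 and Irf7 were the members whose difference exceeded it.

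In 7 wider lists of the pathway, 74 of 104 genes were measured and the median difference was 0.16. Past the size rule, 3 were higher (4.05%), against 1.72% of all measured genes, and 1 was lower, against 0.563%. None of the 11 interferon genes themselves was measured, and 12 of their 24 probesets were bright (50%), against 77.2% of all probesets with a gene. At or above the table's median were 12 of the 24 in the inhibitor array and 8 in the DMSO array. In the list of other inducible effectors none of the 30 measured genes passed the rule. Its lowest member was Ly6e at -0.30 (SD 0.81) and its highest Dtx3l, a ubiquitin ligase partner of PARP9, at 1.16 (SD 0.98) over 5 bright probesets, 3 of them higher, and at 0.21 over all 8. The membrane proteins Ifitm2 and Ifitm3, which hinder virus entry, were bright and close to level, with differences of 0.16 (SD 0.19) and 0.08 (SD 0.20). None of the 5 measured interferon gamma GTPases passed the rule, from Gbp5 at -0.31 (SD 0.75) to Gbp4 at 1.08 (SD 1.64) over 6 bright probesets, 4 of them higher. Gbp4 was at 0.13 over all 16 probesets and turned to -0.02 with several-gene probesets kept.

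In class I antigen presentation, H2-K1 was higher and none of the other 10 measured genes passed the rule. H2-K1, a class I heavy chain gene, had a level of 5.41 with the inhibitor and 4.40 with DMSO and differed by 1.22 (SD 1.12, 2.33-fold), in 8 of 10 probesets. Of these 10 probesets, 3 were bright through the inhibitor array alone, which fixes their direction. The difference was 0.50 with dim probesets kept, and class I genes are near-identical in part, so its identity is uncertain. H2-D1 differed by 0.70 (SD 0.74), and the shared light chain gene B2m had levels of 10.75 with the inhibitor and 10.50 with DMSO and a difference of 0.25 (SD 0.06). The lowest was the loading factor gene Tapbp at -0.27 (SD 0.83). The immunoproteasome genes Psmb8, Psmb9 and Psmb10 differed by 0.40, 0.30 and -0.22.

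**Figure D5:**
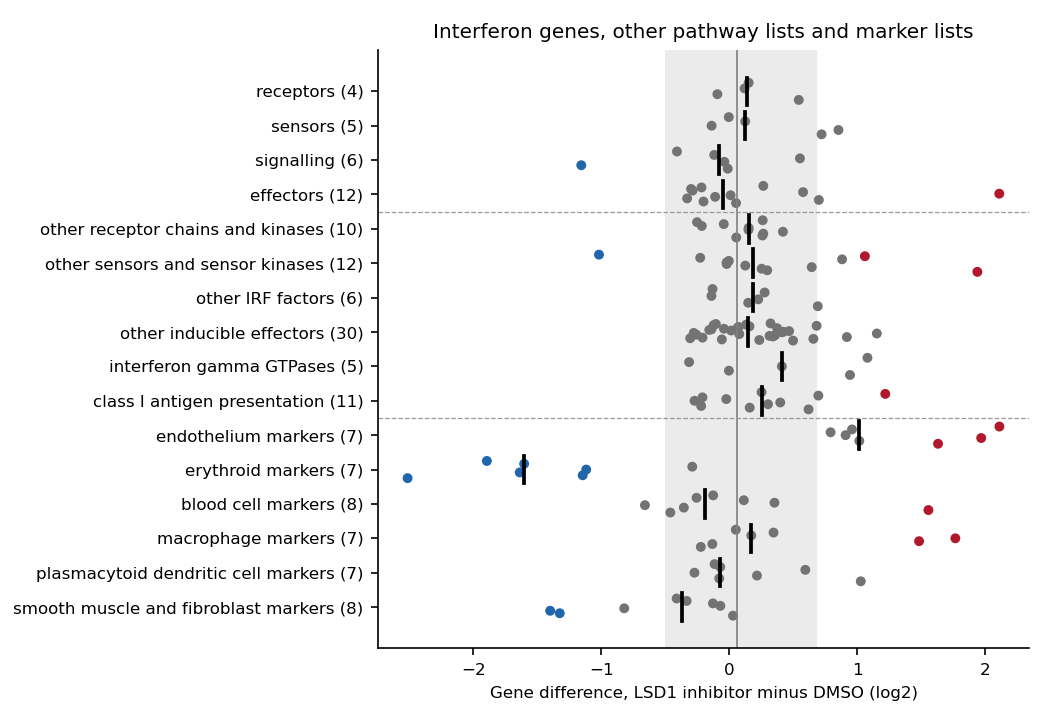
Gene differences (x axis, log2, LSD1 inhibitor minus DMSO) of the members by role, of the other pathway lists and of marker lists, with the number measured; red and blue points passed the size rule as higher and lower, black bars are medians. The grey band is the central 90% of all genes, from -0.50 to 0.68, and holds most interferon points, while all 7 endothelium markers lie right of it and 6 of 7 erythroid markers left of it.

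Markers of cell types moved between the arrays beside these genes. The defining markers of the label were present in both: Cdh5, which encodes VE-cadherin, had levels of 9.84 with the inhibitor and 7.89 with DMSO. Runx1, a factor needed for blood emergence, had 8.60 with the inhibitor and 8.44 with DMSO, and the CD41 gene Itga2b had 6.0 with the inhibitor and 6.19 with DMSO. Of 7 measured endothelium markers 3 were higher (Cdh5, Esam and Egfl7) and all 7 were above 0, with a mean level of 7.24 with the inhibitor and 5.91 with DMSO. Of 7 erythroid markers 6 were lower (Trim10, Hbb-y, Epor, Hba-x, Slc4a1 and Klf1), with a mean level of 7.02 with the inhibitor and 8.46 with DMSO. Bright through the DMSO array alone were 3 of 9 bright probesets in Trim10, 3 of 18 in Slc4a1 and 1 of 8 in Epor. The filter fixes the direction of these probesets. Of 8 blood cell markers 1 passed the size rule as higher, Gfi1b, and none as lower. The blood cell list had a median difference of -0.19, with 3 genes above 0 and 5 below. Of 7 macrophage markers 2 were higher, Lyz2 and Mrc1, and the list had a median difference of 0.17. Its mean level was 4.95 with the inhibitor and 4.50 with DMSO. In Mrc1, 13 of 26 bright probesets were bright through the inhibitor array alone, which fixes their direction. Of 8 smooth muscle and fibroblast markers Dcn and Postn were lower. In Dcn, 5 of 8 bright probesets were bright through the DMSO array alone. Bst2 also marks plasmacytoid dendritic cells. None of 7 measured markers of that cell type passed the rule, and their mean level was 4.31 with the inhibitor and 4.21 with DMSO. Their differences ran from -0.27 to 1.03 with a median of -0.07, 3 above 0 and 4 below. Siglech, the defining receptor gene of that cell type, differed by -0.11 (SD 0.83) over 4 bright probesets. Of these, 2 were bright through the inhibitor array alone, and over all 8 probesets Siglech differed by 0.42. The part of these shifts in the differences of Bst2, Tmem173 and Irf7 was not tested.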

How the data were processed

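Total RNA of CD41+ cells was measured on 2 Affymetrix arrays, 1 with the LSD1 inhibitor and 1 with DMSO, grouped by sample title. The deposited file gives each of 1048575 probesets a value per array, read here as log2 intensity because the values run from 0.157 to 13.5. Whether these are all the probesets of the array was not checked. How the authors summarised and normalized the deposited log2 values is not given in the sources used here. At equal rank the arrays differ by at most 0.085, and their medians are 3.16 (inhibitor) and 3.18 (DMSO). No detection call is given, and having 1 array per group limits precision.

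A platform annotation table named 270105 probesets with 1 gene and 5737 with several, which were left out. Older symbols were updated through the RefSeq gene table of GRCm38.p6. Gene levels and differences were computed in Python 3.11.15 with pandas 2.3.3 as the report defines them, with no further scaling, and the code was tested on simulated data. No test between groups was possible. The members and lists were chosen with earlier results of these data known. The text names all 34 members, every gene of the other lists past the size rule, and the lowest and highest of each pathway list; Jak1, H2-D1, B2m, Ifitm2, Ifitm3, the Psmb genes, Cdh5, Runx1, Itga2b and Siglech were added for their role. The 15 alternatives changed scaling, the filter on dim probesets, the summary, the probesets used or the thresholds.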

Additional observations from a re-analysis of the deposited data

How the results depend on the processing

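There was 1 array per group, so no array could be left out, and no paired analysis was possible because each group has 1 sample. Of 371 recomputed member differences, 7 newly passed the size rule in use, 3 no longer did, and none past it changed sign. The members' median ran from -0.04 to 0.14 around -0.0026. Under the 3 scalings it was above 0, at 0.025, 0.030 and 0.034. The median of all measured genes was higher each time, at 0.087, 0.047 and 0.054 in the same order. Members counted as higher were 2 in place of 1 with dim probesets kept, with the 75th percentile filter and with means (Tmem173 joined Bst2 each time), 4 at 1.5-fold, and 0 with at least 8 bright probesets or odd-ranked probesets alone, where the 4 probesets of Bst2 were too few. With even-ranked probesets alone the 1 higher member was Xaf1. Members counted as lower were 0 in place of 1 with dim probesets kept, with the 75th percentile filter, with at least 8 bright probesets, with values raised to the table's median, with even-ranked probesets alone and at 3-fold. Irf7 had too few probesets with the 75th percentile filter, with at least 8 and with even-ranked ones. In the other pathway lists, 3 genes were higher in the main setting. There were 1 with dim probesets kept, with values raised to the table's median and at 3-fold, 5 with at least 1 bright probeset or no direction rule, and 11 at 1.5-fold. Lower there was 1 gene, Dhx58, and 0 under every alternative except several-gene probesets kept, 1.5-fold and no direction rule, which gave 1, and at least 1 bright probeset, which gave 2. The settings that filter or raise dim values act on dim genes by construction; for the others the cause was not tested.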
